A study of Mus musculus with 3 samples.

Results

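The chemokine and chemokine receptor genes described here are those whose symbol is Ccl, Cxcl, Ccr, Cxcr or Ackr followed by a number alone, or Cx3cl1, Cx3cr1, Xcl1 or Xcr1. Cxcl12 was left out, and so were symbols that carry a letter after the number, such as Ccl27a. The rule used names only and no measured value. It gave 51 of the 18193 genes on the array, read by 81 probe sets. Of the 51, 31 encode ligands, 16 signalling receptors and 4 atypical receptors.

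Chemokines are small secreted proteins that bind receptors on the cell surface and direct the movement of blood cells. They are classed as CC, CXC, CX3C or XC by the spacing of their first cysteines. Signalling receptors of the Ccr, Cxcr, Cx3cr and Xcr families pass the signal on through G proteins, whereas the atypical receptors of the Ackr family take up or present chemokines without that signal. In bone, stromal cells are a known source of chemokines that hold or recruit blood cells, and mature blood cells carry most of the signalling receptors.

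The genes were measured in 3 populations of cells from C57BL/6 mice, obtained by collagenase digestion of femur and tibia fragments and called endosteal in the labels. All 3 were sorted as negative for CD45, CD31 and Ter119, which mark blood, endothelial and erythroid cells. The sort then gave PDGFRa- Sca-1-, PDGFRa+ Sca-1- and PDGFRa+ Sca-1+ cells, with 1 array each and so with no replicate, test or error between animals. Total RNA was amplified and biotin-labelled by a two-cycle assay for Affymetrix arrays. Age, sex, the number of mice and any pooling are not stated in any source used here.

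The PDGFRa, CD45 and CD31 labels were set against their genes first, and the Sca-1 label was not checked here. The gene of PDGFRa, Pdgfra, had signals of 586, 2420 and 12846 in PDGFRa- Sca-1-, PDGFRa+ Sca-1- and PDGFRa+ Sca-1+ cells, so it was lowest where the label says PDGFRa-. Ptprc (CD45) and Pecam1 (CD31) were under the floor on all 3 arrays. The floor is a signal of 93.2, the mean of the 3 array medians, and stands in for detection calls. All 10 chondrocyte markers were above it in both Sca-1- populations, and 9 of the 10 in PDGFRa+ Sca-1+ cells. The cells are thus not shown to be bone-lining cells alone. All 12 fibroblast and adventitial markers were above it in PDGFRa+ Sca-1+ cells, against 7 and 8 in the others. Of 14 macrophage and monocyte markers, 5, 5 and 4 were above the floor in that order of populations. Of 11 neutrophil markers, 2, 9 and 9 were above it.

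Cxcl1, Cxcl2 and Cxcl3 are shown by sequence because they lie in 1 cluster and share a stretch of letters before their starts, while Cxcl1 and Cxcl2 were higher in PDGFRa+ Sca-1+ than in both other populations and Cxcl3 was under the floor there. Their proteins are known to attract neutrophils through the receptor Cxcr2, and NF-kB, a transcription factor of inflammation, is known to act through kB motifs in such genes. The lines give the 120 bases before each start, 5′ to 3′ along the gene, from RefSeq's GRCm38.p6 assembly, at chr5:90891125-90891244, chr5:90903779-90903898 and chr5:90785981-90786100, all on the plus strand. Capitals mark matches to the kB motif as searched here, GGG, any 2 bases and TTTCC, on either strand.
Cxcl1: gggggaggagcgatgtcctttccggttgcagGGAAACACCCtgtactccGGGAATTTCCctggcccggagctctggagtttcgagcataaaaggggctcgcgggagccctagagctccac
Cxcl2: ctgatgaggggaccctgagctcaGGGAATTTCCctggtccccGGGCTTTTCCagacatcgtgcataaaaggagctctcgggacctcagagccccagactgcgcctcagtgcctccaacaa
Cxcl3: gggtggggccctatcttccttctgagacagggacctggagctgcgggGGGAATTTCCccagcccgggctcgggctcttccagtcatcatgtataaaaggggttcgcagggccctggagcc

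The Cxcl1 and Cxcl2 windows held 2 matches each and the Cxcl3 window 1, and GGGAATTTCC stood in all of them. Of the 51 members, 38 had a promoter entry. The 250 bases before the start held the letters in 6 of these 38 genes. Counted by promoter this is 6 of 40, against 1.41% of 32851 promoters in the RefSeq table. The other 3 genes were Ccl9, Ccl20 and Ccr3, all under the floor on every array. A second search on both strands looked for GAAA, any 2 bases and GAAA, letters of the interferon-stimulated response element. It found Cxcl10 and Cxcl14, 2 of the 38 genes and 2 of the 40 promoters, against 2.98% of the 32851 promoters. No member held matches of both motifs. These matches describe the letters and are not shown to be used in these cells.

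Most chemokine and receptor genes lay under the floor on each array. In PDGFRa- Sca-1- cells 15 of the 51 (29.4%) were above it, against 60.6% of all genes. In PDGFRa+ Sca-1- cells 18 (35.3%) were above it, against 60.7%, and in PDGFRa+ Sca-1+ cells also 18, against 59.6%. On at least 1 array 25 of the 51 passed the floor, against 67.1% of all genes, and 10 were above it on all 3, against 53.6%. The other 26 had signals between 2.60 and 82.5, and 0 of their 39 probe sets passed the floor on any array. They were the CC ligands Ccl1, Ccl3, Ccl5, Ccl6, Ccl9, Ccl12, Ccl17, Ccl20, Ccl22 and Ccl24, the ligands Cxcl15 and Xcl1, and the receptors Ccr1, Ccr2, Ccr3, Ccr4, Ccr7, Ccr8, Ccr9, Ccr10, Cxcr2, Cxcr4, Cxcr5, Cxcr6, Cx3cr1 and Xcr1.

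Ligands of the CXC class and atypical receptors made up most of the genes detected. On at least 1 array, 11 of 12 CXC ligands, 7 of 17 CC ligands and 1 of 2 CX3C and XC ligands were above the floor. All 4 atypical receptors were, and 2 of 16 signalling receptors, against 67.1% of all genes. In PDGFRa- Sca-1-, PDGFRa+ Sca-1- and PDGFRa+ Sca-1+ cells taken singly, 7, 6 and 8 of the 12 CXC ligands were above it. Of all genes, 60.6%, 60.7% and 59.6% were, so on single arrays the CXC share lay near that of all genes. Some signals of the members lay close to the floor. Cxcl17 (93.2) in PDGFRa- Sca-1- cells and Ccl28 (93.3) in PDGFRa+ Sca-1- cells were just above it, and Ccr6 (87.8) in PDGFRa- Sca-1- cells and Ccl28 (86.3) in PDGFRa+ Sca-1+ cells were just under it.

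**Figure D1:**
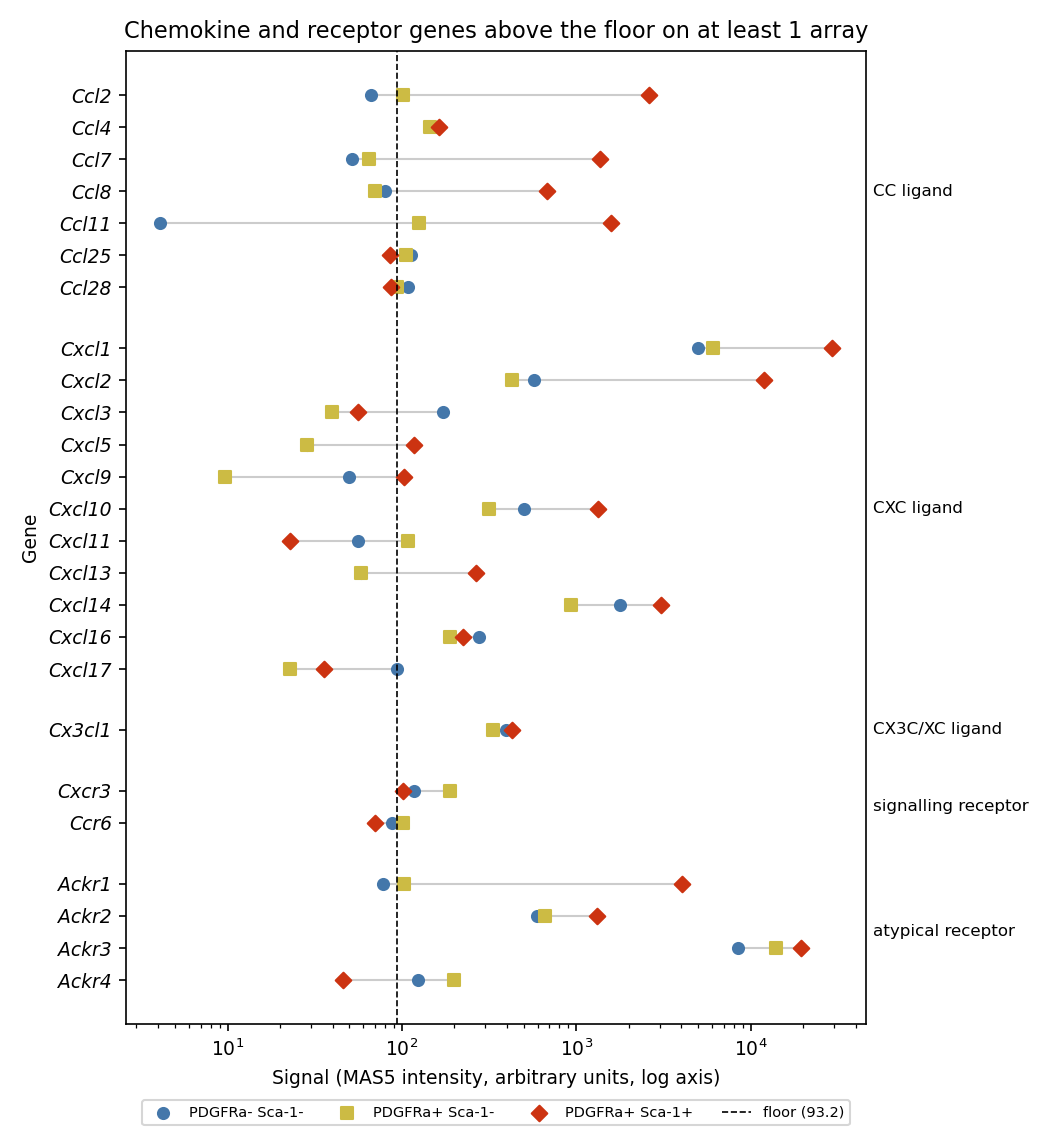
Signal of the 25 members that passed the floor on at least 1 array, on a log axis, with 1 marker per population and the floor of 93.2 as a dashed line. Ccl2, Ccl7, Ccl8, Ccl11, Cxcl1, Cxcl2 and Ackr1 have the PDGFRa+ Sca-1+ marker far to the right of both others. Distances between genes are not comparable, since each probe set has its own response.

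The comparison of PDGFRa+ Sca-1+ with PDGFRa+ Sca-1- cells asks what goes with Sca-1 among PDGFRa+ cells. The inflammatory ligands Ccl2, Ccl7, Ccl8, Ccl11, Cxcl1, Cxcl2 and Cxcl10, the B cell attractant Cxcl13, the epithelial and stromal chemokine Cxcl14 and the atypical receptor Ackr1 were at least 2-fold higher in PDGFRa+ Sca-1+ cells. These 10 make up 19.6% of the 51 members, against 9.69% of all genes on the array. Ackr4 was lower, where 7.37% of all genes were. Of the 23 members that passed the floor on 1 or both of these arrays, the same calls are 43.5% higher, against 14.9% of 11855 genes compared, and 1 lower, against 11.3%. In either direction 26.2% of all genes compared passed 2-fold. The median log2 ratio of the 23 was 0.48, against 0.07 over all genes compared. This median moved with the processing. It was 0.41 with a floor at the 33rd percentile and 0.48 with values as deposited. It was 0.77 with quantile normalization, 0.87 with a common median and 0.90 with log2(signal + floor). With the mean over probe sets it was 1.82 and with a floor at the 67th percentile 2.07. Members counted there had to pass the floor on 1 of the arrays, so this share is a description. Of the 10 higher genes, 7 were read by 1 probe set, and in the other 3, Cxcl1, Cxcl13 and Cxcl14, every probe set was at least 2-fold higher.

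**Figure D2:**
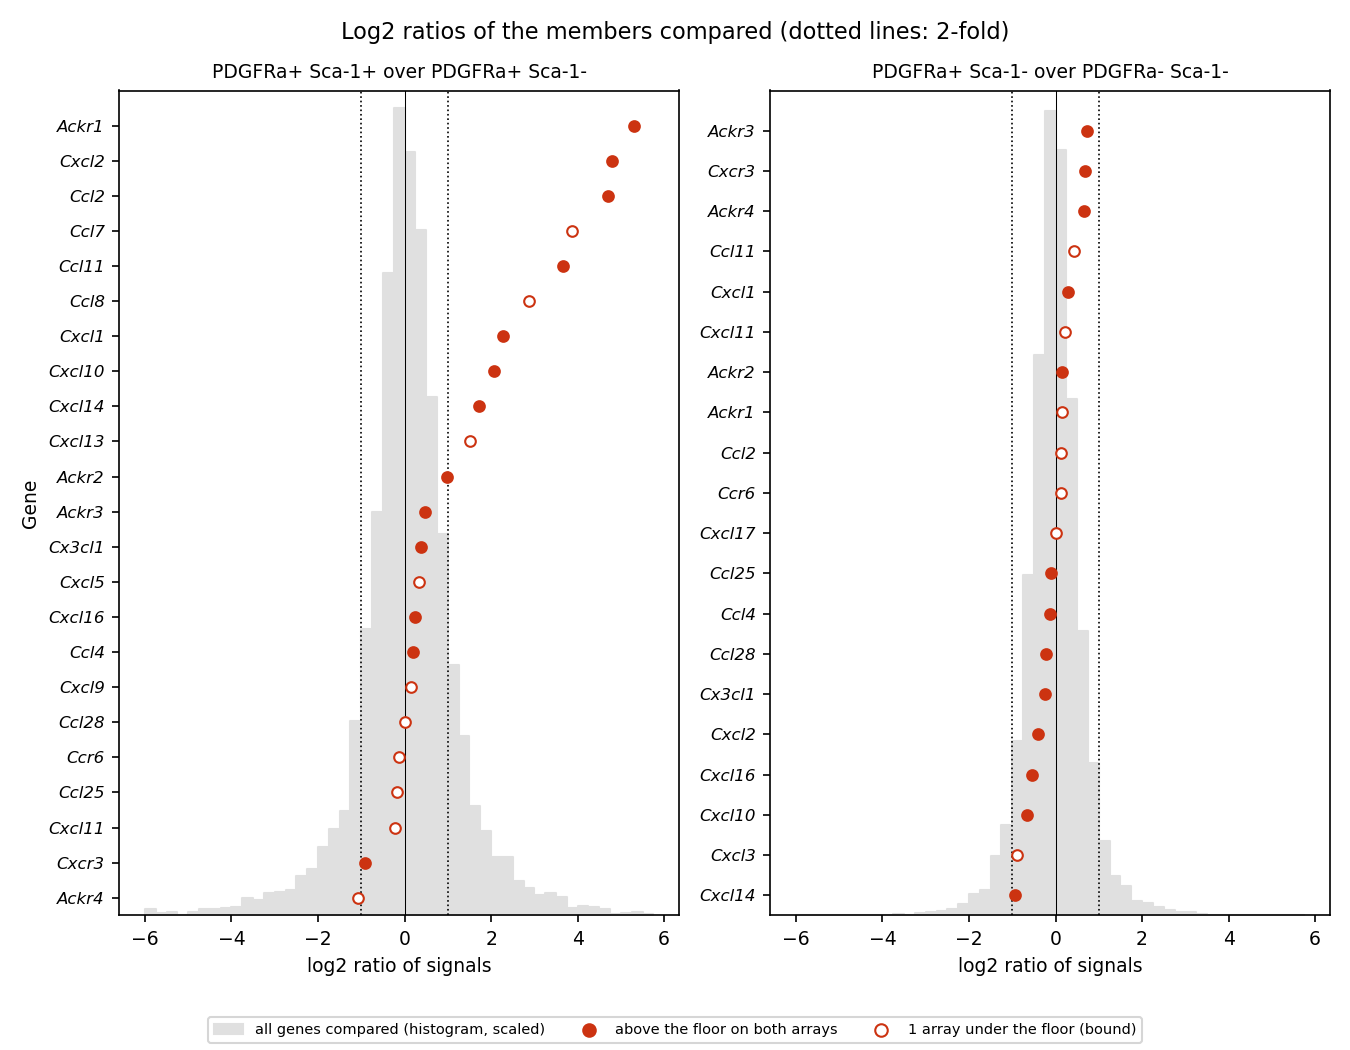
Log2 ratio of signals for each member compared, PDGFRa+ Sca-1+ over PDGFRa+ Sca-1- on the left and PDGFRa+ Sca-1- over PDGFRa- Sca-1- on the right, over a grey histogram of all genes compared. Open points are bounds with 1 array under the floor, and dotted lines mark 2-fold. On the left 10 members lie beyond the upper line and Ackr4 just beyond the lower, and on the right all 20 lie between the lines.

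Ccl2, Ccl7, Ccl8 and Ccl11 are CC ligands, of which Ccl2 and Ccl7 are known to attract monocytes and Ccl11 eosinophils. Ccl2 had a signal of 66.6 in PDGFRa- Sca-1- cells, 101 in PDGFRa+ Sca-1- cells and 2617 in PDGFRa+ Sca-1+ cells. It was thus near or under the floor in both Sca-1- populations and 25.9-fold higher in PDGFRa+ Sca-1+ than in PDGFRa+ Sca-1- cells. Ccl7, which shares the receptor Ccr2 with Ccl2, had signals of 52.0, 64.6 and 1364 in the same order. It passed the floor on the last array alone and was at least 14.6-fold higher there than on either other array. "At least" marks a ratio taken against the floor where the lower signal lies under it.

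Ccl8, another ligand of this group, was at 79.7, 69.8 and 681, and so at least 7.31-fold higher in PDGFRa+ Sca-1+ cells than in each of the others. Ccl11, or eotaxin, had signals of 4.10, 125 and 1580 in PDGFRa- Sca-1-, PDGFRa+ Sca-1- and PDGFRa+ Sca-1+ cells. It was above the floor in both PDGFRa+ populations, 12.6-fold higher in the Sca-1+ one, and at least 17.0-fold higher there than in PDGFRa- Sca-1- cells. The other CC ligands above the floor, Ccl4, Ccl25 and Ccl28, had signals between 85.3 and 164 and stayed within 2-fold in all 3 comparisons. Ccl4 attracts monocytes and T cells, Ccl25 draws developing T cells and Ccl28 is a mucosal ligand.

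The 4 higher CC genes are neighbours. In the RefSeq table of GRCm38.p6, used for names and order, Ccl2, Ccl7, Ccl11, Ccl12, Ccl8 and Ccl1 follow each other on chromosome 11 with 0 other protein-coding genes between them. Ccl12 (at most 7.31) and Ccl1 (at most 51.8), from the same run, were under the floor on all 3 arrays. In the second run on that chromosome, Ccl5, Ccl9, Ccl6 and Ccl3 were also under it, and only Ccl4 was above it, at 157, 144 and 164. Members of 1 cluster can resemble each other in sequence, and sharing of signal between their probe sets was not tested.

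**Figure D3:**
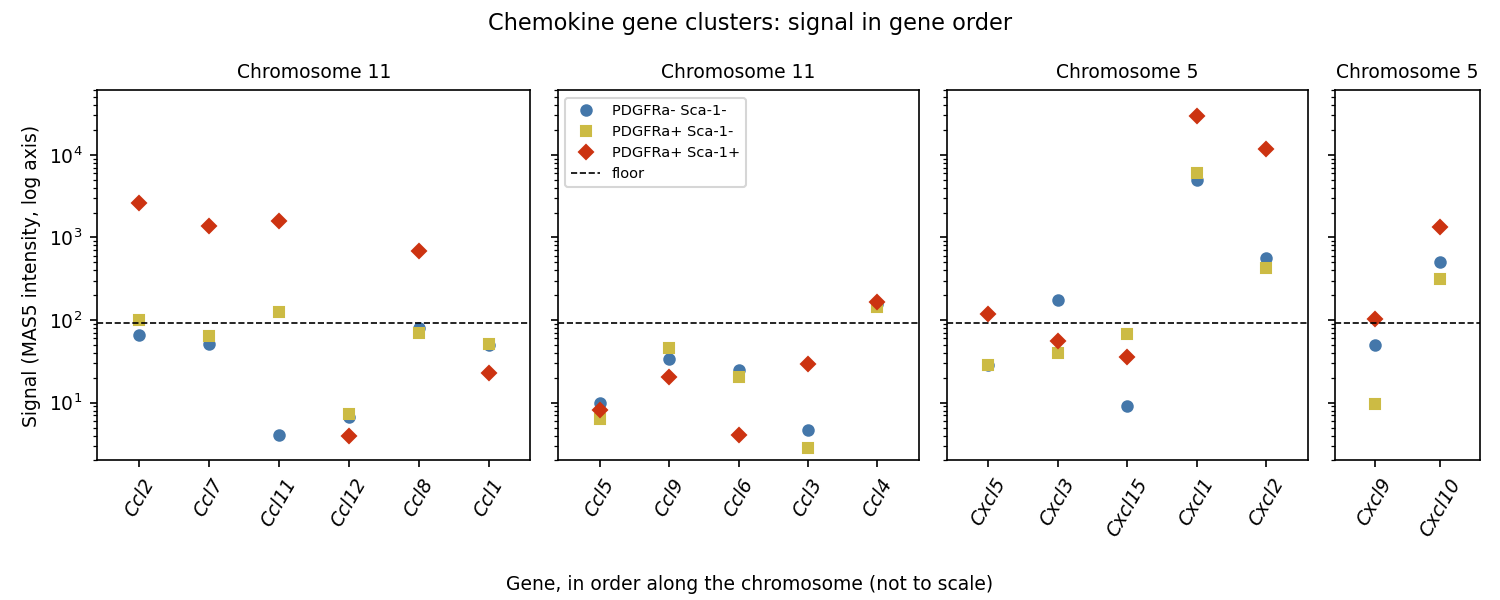
Signal on a log axis for members in order along chromosomes 11 and 5, with 1 panel per run of neighbouring genes and the floor as a dashed line. In the first run 4 of 6 genes have the PDGFRa+ Sca-1+ marker above the floor and well above both other populations, and in the second run none has. Ccl3 of the second run has that marker (29.7) above the others (4.7 and 2.8), but all 3 lie under the floor.

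Among the neutrophil-attracting CXC ligands, Cxcl1 and Cxcl2 were above the floor everywhere and higher in PDGFRa+ Sca-1+ cells. Cxcl2 had signals of 569, 427 and 11917 in PDGFRa- Sca-1-, PDGFRa+ Sca-1- and PDGFRa+ Sca-1+ cells. The Sca-1- populations were close to each other, and PDGFRa+ Sca-1+ cells were 27.9-fold above PDGFRa+ Sca-1- cells and 21.0-fold above PDGFRa- Sca-1- cells. Cxcl1 had signals of 4971, 6038 and 29396 and was 4.87-fold higher in PDGFRa+ Sca-1+ than in PDGFRa+ Sca-1- cells. Its other 2 probe sets gave 10.3-fold and 6.12-fold. The signal of 29396 lay near the top of that array, whose highest was 42074, where saturation can compress a ratio.

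Cxcl3 and Cxcl5, close relatives of these genes, did not share the pattern. Cxcl3, whose promoter letters are printed above, was at 173, 39.7 and 55.9 and passed the floor in PDGFRa- Sca-1- cells alone. Cxcl5 was at 28.5, 28.6 and 117, above the floor in PDGFRa+ Sca-1+ cells alone, and that close to it only a bound of at least 1.25-fold could be given. Cxcl15, from the same run on chromosome 5, was under the floor on all 3 arrays.

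Cxcl9, Cxcl10 and Cxcl11 are ligands of Cxcr3 that interferon induces. Cxcl10 had signals of 500, 317 and 1327 in PDGFRa- Sca-1-, PDGFRa+ Sca-1- and PDGFRa+ Sca-1+ cells, 4.19-fold higher in the last than in PDGFRa+ Sca-1- cells and 2.65-fold higher than in PDGFRa- Sca-1- cells. Cxcl9, at 49.7, 9.71 and 103, and Cxcl11, at 55.8, 108 and 22.7, each passed the floor on 1 array by little. RefSeq lists Cxcl11 as a transcribed pseudogene in the C57BL/6J assembly, the strain background of these mice.

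Cxcl13 draws B cells into lymphoid follicles, and Cxcl14 is made by epithelial and stromal cells. Cxcl13 was at 58.4, 58.5 and 266 by the probe set used, at least 2.85-fold higher in PDGFRa+ Sca-1+ cells than in each other population, and its other probe set, at 17.9, 41.5 and 899, gave at least 9.65-fold. Cxcl14 had signals of 1775, 928 and 3061, lowest in PDGFRa+ Sca-1- cells, which were 1.91-fold below PDGFRa- Sca-1- cells. It was 3.30-fold higher in PDGFRa+ Sca-1+ than in PDGFRa+ Sca-1- cells. Its second probe set gave 2.12-fold and 2.70-fold for the same differences, so the first lies at the threshold.

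Cxcl16 and Cx3cl1 are made as membrane-bound proteins that can be shed. Cxcl16 was at 275, 189 and 224, within 2-fold throughout, although its other probe set was 2.11-fold higher in PDGFRa+ Sca-1+ than in PDGFRa+ Sca-1- cells. Cx3cl1 was at 393, 332 and 429, also within 2-fold throughout. Cxcl17, a mucosal gene, was at 93.2, 22.9 and 35.9, the first value at the floor itself.

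**Figure D4:**
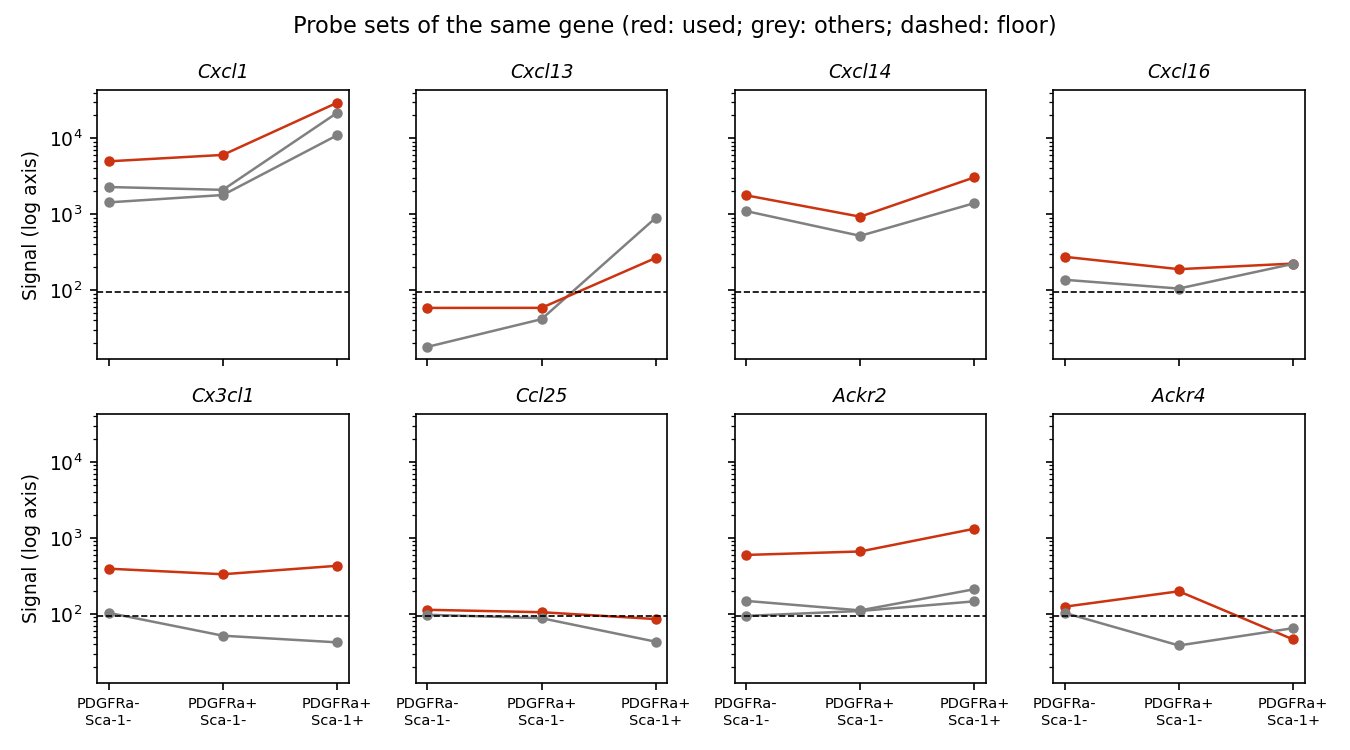
Signals of the probe sets above the floor on at least 1 array, on a log axis, for the 8 members with more than 1 of them, across the 3 populations. The probe set used is red and the dashed line is the floor. The probe sets of Cxcl1, Cxcl13 and Cxcl14 run in parallel or in the same direction from PDGFRa+ Sca-1- to PDGFRa+ Sca-1+ cells, and those of Ackr4 cross.

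All 4 atypical receptors gave a signal. Ackr1, known from venules and red cells as the Duffy antigen, which binds many inflammatory chemokines, had signals of 78.3, 103 and 4054. It was near the floor in both Sca-1- populations, 39.6-fold higher in PDGFRa+ Sca-1+ than in PDGFRa+ Sca-1- cells and at least 43.5-fold higher than in PDGFRa- Sca-1- cells. Markers of the cells it is known from were read on the same arrays. Of 16 endothelial markers, 3, 5 and 3 were above the floor in PDGFRa- Sca-1-, PDGFRa+ Sca-1- and PDGFRa+ Sca-1+ cells, with summed signals of 852, 983 and 1870. Pecam1, Cdh5 and Tie1 were under the floor on all 3 arrays, while Tek (13.3, 37.4 and 888) and Plvap (103, 187 and 446) were highest in PDGFRa+ Sca-1+ cells. Of 10 erythroid markers, 6, 7 and 3 were above the floor, with summed signals of 7840, 2596 and 1764. Tfrc, at 6574, 1752 and 1063, made up most of each sum. Hba-a1, Alas2 and Rhag were under the floor on all 3 arrays. The part of endothelial cells in the Ackr1 signal was not tested beyond these values. In bulk samples such as these, fewer cells of a kind and less RNA per cell cannot be told apart.

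Ackr3, which takes up Cxcl12, had signals of 8479, 13929 and 19376. The steps were 1.64-fold and 1.39-fold, each within 2-fold, and the ends differed 2.29-fold. Ackr2, which clears inflammatory CC ligands, was at 596, 662 and 1320, 2.21-fold higher in PDGFRa+ Sca-1+ than in PDGFRa- Sca-1- cells and 1.99-fold higher than in PDGFRa+ Sca-1- cells, just short of the threshold. Its other 2 probe sets were within 2-fold in both comparisons. Ackr4, which clears Ccl19, Ccl21 and Ccl25, was at 124, 198 and 46.0. It was at least 2.12-fold lower in PDGFRa+ Sca-1+ than in PDGFRa+ Sca-1- cells by this probe set, while its other 2 lay under the floor on both of these arrays.

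Signalling receptors gave little signal. Cxcr3, the receptor of Cxcl9 and Cxcl10, was at 118, 189 and 101, and Ccr6, the receptor of Ccl20, at 87.8, 101 and 70.5, both within 2-fold wherever compared. Each of the other 14 stayed under the floor throughout, the highest signal being 82.5 for Cx3cr1 in PDGFRa+ Sca-1+ cells. Among them were Cxcr4 (30.2, 15.5 and 27.0), the receptor of Cxcl12, Ccr2, the receptor of Ccl2, and Cxcr2, the receptor of Cxcl1 and Cxcl2. A signal under the floor sets a limit on this array and does not show that the transcript is absent.

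The comparison of PDGFRa+ Sca-1- with PDGFRa- Sca-1- cells, both Sca-1-, sets PDGFRa+ against PDGFRa- cells. Of the 51 members, 0 were 2-fold or more higher, where 3.09% of all genes on the array were, and 0 were lower, where 3.61% were. Of the 20 that passed the floor on 1 or both arrays the count is also 0, where 4.82% of 11675 genes compared were higher, 5.63% lower and 10.4% either. These counts lie near the share of all genes and say nothing particular about the members. Of the 20 ratios 7 are bounds with 1 array under the floor, so a larger difference is not excluded for them. Ccl11, at 4.10 against 125, had a log2 ratio of 0.43 as such a bound and of 1.61 with the floor at the 33rd percentile. The median log2 ratio was 0.06, against -0.03 over all genes. Ackr3 (0.72), Cxcr3 (0.68) and Ackr4 (0.67) had the highest log2 ratios and Cxcl14 (-0.94) and Cxcl3 (-0.89, a bound) the lowest. The summed neutrophil marker signal was 791 in PDGFRa- Sca-1- and 3303 in PDGFRa+ Sca-1- cells, and its part in these values was not tested.

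Between PDGFRa+ Sca-1+ and PDGFRa- Sca-1- cells, 11 of the 51 members (21.6%) were at least 2-fold higher, against 9.42% of all genes on the array. Among the 23 compared these are 47.8%, against 14.5% of 11843 genes, and 0 were lower, against 12.2% of genes compared and 7.93% of all genes on the array. In either direction 26.6% of the genes compared passed 2-fold. The median log2 ratio was 0.79, against 0.03 over all genes. It was 0.45 with a floor at the 33rd percentile and 1.41 at the 67th. Ccl2, Ccl7, Ccl8, Ccl11, Cxcl1, Cxcl2, Cxcl10, Cxcl13 and Ackr1 were at least 2-fold higher in PDGFRa+ Sca-1+ cells than in both other populations, 9 genes in all. Ackr2 and Ackr3 passed 2-fold against PDGFRa- Sca-1- cells only and Cxcl14 against PDGFRa+ Sca-1- cells only. The comparisons share the PDGFRa+ Sca-1+ array and so are not separate evidence.

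The macrophage and monocyte markers summed to 1885, 2989 and 1442 in PDGFRa- Sca-1-, PDGFRa+ Sca-1- and PDGFRa+ Sca-1+ cells, with 9 of the 14, C1qa, Tyrobp and Itgam among them, under the floor on all 3 arrays. The sum was moved mostly by Cd14, at 1011, 1960 and 367, while Lyz2, at 134, 152 and 353, was 2.32-fold higher in PDGFRa+ Sca-1+ than in PDGFRa+ Sca-1- cells. The other 3 above the floor, Adgre1, Csf1r and Cd68, were within 2-fold. The neutrophil sum was 3303 in PDGFRa+ Sca-1- and 3335 in PDGFRa+ Sca-1+ cells. Of the 9 neutrophil markers compared there, Lcn2 was 5.22-fold higher in PDGFRa+ Sca-1+ cells, at 533 against 102, and 8 were within 2-fold. The fibroblast and adventitial markers, at 76228, 87578 and 186741 in sum, were higher in PDGFRa+ Sca-1+ than in PDGFRa+ Sca-1- cells for 9 of 12. Osteoblast markers, at 43029, 120442 and 18840, were lower for 6 of 7, and chondrocyte markers, at 166630, 201687 and 39735, for 9 of 10. The part of these markers in the result was not tested. The 3′ to 5′ signal ratio of the Actb controls, a sign of RNA quality, was 2.99, 2.63 and 4.65, highest on the PDGFRa+ Sca-1+ array. Its part in the result was not tested either.

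Related genes outside the naming rule were read from fixed lists. Of 24 other chemokine and chemoattractant genes on the array, 19 could be compared between PDGFRa+ Sca-1+ and PDGFRa+ Sca-1- cells. Of these, 7 were at least 2-fold higher in PDGFRa+ Sca-1+ cells and 2 lower, and the median of the log2 ratios was 0.64. Of all genes compared, 14.9% were higher and 11.3% lower, with a median of 0.07. Cxcl12, which holds blood stem cells in the marrow, was at 435, 1385 and 21288, 15.4-fold higher in PDGFRa+ Sca-1+ than in PDGFRa+ Sca-1- cells, though its other 2 probe sets gave 1.06-fold and at least 1.13-fold. The chemerin gene Rarres2 was at 107, 415 and 7575 and its receptors Cmklr1 at 379, 240 and 969 and Gpr1 at 56.7, 85.0 and 1221. Rarres2, Cmklr1 and Gpr1 were thus highest in PDGFRa+ Sca-1+ cells. Ccrl2, from the same list, was at 147, 214 and 127, lowest there. S1pr3, a receptor for sphingosine 1-phosphate, was 4.91-fold lower and Cmtm3 4.29-fold higher there than in PDGFRa+ Sca-1- cells, while Pf4 and Cd74 stayed within 2-fold throughout.

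Proteases known to cut chemokines were at least 2-fold higher in PDGFRa+ Sca-1+ than in PDGFRa+ Sca-1- cells in 5 cases of 13 compared and lower in 2. Of all genes compared, 14.9% were higher and 11.3% lower. The median log2 ratio of the proteases was 0.75, against 0.07 over all genes compared. Dpp4, which trims and inactivates Cxcl12 and other chemokines, was at 19.6, 16.2 and 1607, above the floor in PDGFRa+ Sca-1+ cells alone and at least 17.2-fold higher there. The aminopeptidase Anpep was at 9.0, 6.21 and 624, with the same pattern. Mmp13 was 12.7-fold and Furin 2.79-fold lower in PDGFRa+ Sca-1+ than in PDGFRa+ Sca-1- cells, Ctsk was 2.61-fold higher, and Ctsb and Mmp3 were within 2-fold. Adam10, which sheds Cxcl16 and Cx3cl1, was at 933, 2096 and 3528, within 2-fold in that step and 3.78-fold higher in PDGFRa+ Sca-1+ than in PDGFRa- Sca-1- cells.

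Upstream cytokines and receptors were at least 2-fold higher in PDGFRa+ Sca-1+ than in PDGFRa+ Sca-1- cells in 9 cases of 21 compared and lower in 0. Of all genes compared, 14.9% were higher and 11.3% lower. The median log2 ratio of this list was 0.95, against 0.07 over all genes compared. The alarmin Il33 (255 against 3105), the lipopolysaccharide receptor Tlr4 (130 against 1235), Tlr2 (327 against 2230), Il13ra1 (455 against 2741) and Il6 (427 against 8740) were among those higher. Il6 was also 9.49-fold lower in PDGFRa+ Sca-1- than in PDGFRa- Sca-1- cells, and Tlr3 (123, 358 and 661) was 5.37-fold higher in PDGFRa+ Sca-1+ than in PDGFRa- Sca-1- cells. Tnfrsf1a (2835 against 5171) and Il1r1 (2444 against 4803) were within 2-fold. Il1a, Il1rn, Tnf, Ifng and Il17a, named after their values were seen, were the 5 genes of this list that did not pass the floor anywhere.

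Among NF-kB factors and inhibitors, 5 of 14 were at least 2-fold higher in PDGFRa+ Sca-1+ than in PDGFRa+ Sca-1- cells and 1 was lower. Of all genes compared, 14.9% were higher and 11.3% lower. The median log2 ratio of the NF-kB list was 0.70, against 0.07 over all genes compared. The inhibitor Tnfaip3 was at 790, 773 and 3541, 4.58-fold higher in PDGFRa+ Sca-1+ than in PDGFRa+ Sca-1- cells. Ikbkb (2.48-fold), Ikbkg (2.33-fold), Birc3 (2.03-fold) and Nfkbiz (2.01-fold) were also higher and Rel was 2.78-fold lower. Birc3 and Nfkbiz only just passed the threshold. The inhibitor Nfkbia, at 18201, 18590 and 24234, and the subunit Rela were within 2-fold.

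Of 24 immediate early genes, which tissue digestion is known to induce, 0 were higher in PDGFRa+ Sca-1+ than in PDGFRa+ Sca-1- cells and 4 were lower, the median log2 ratio being -0.24. Of all genes compared, 14.9% were higher and 11.3% lower, with a median of 0.07. Fos was at 24645, 25492 and 23349 and Egr1 at 29329, 31864 and 28738, while Fosl1 (4.57-fold), Btg2 (3.76-fold), Egr2 (3.40-fold) and Ccn1 (2.32-fold) were lower. The highest signals of the arrays were 40707, 38540 and 42074. The Fos and Egr1 signals thus lay where saturation can compress a ratio, and their closeness does not show an equal response. Among receptor signalling genes, 5 of 21 compared were higher and 4 lower, against 14.9% and 11.3% of all genes compared. The median log2 ratio of this list was 0.36, against 0.07. Arrb1, a beta-arrestin, was 7.86-fold, Rgs5 8.92-fold and the receptor kinase Grk5 4.31-fold higher, whereas Grk3 was 5.62-fold, the G protein Gnai1 5.57-fold and Rgs16 4.18-fold lower. Gnai2 and Grk6 were within 2-fold in every comparison of the 3 populations.

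**Figure D5:**
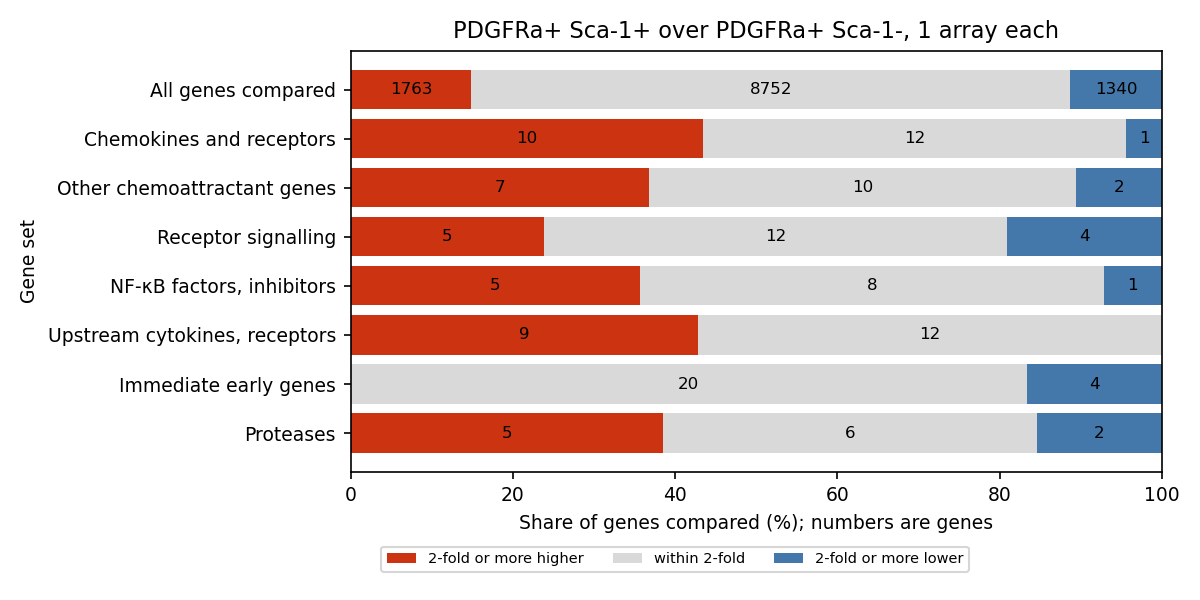
Share of genes compared that were at least 2-fold higher (red), within 2-fold (grey) or at least 2-fold lower (blue) in PDGFRa+ Sca-1+ than in PDGFRa+ Sca-1- cells, with gene numbers in the bars. The chemokine and receptor genes have 10 higher and 1 lower, all genes compared 1763 and 1340, and the immediate early genes 0 and 4.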

How the data were processed

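Probe set intensities on a linear scale were deposited, made with MAS5 per the submitters' processing notes. Its version, detection calls and filters are not stated in any source used here. In the deposited values the 2% trimmed mean over 45101 probe sets was 500 on each array. Control probe sets (64) were set aside and the arrays were scaled to a common 2% trimmed mean. Of the other 45037 probe sets, 34945 had 1 symbol in the platform annotation, 932 several and 9160 none. Of the first, 34741 had a gene number that is also in RefSeq's GRCm38.p6 table, and 0 symbols changed. Each of 18193 genes was read from 1 probe set, that of the highest log2 signal averaged over the arrays. A signal below the floor was set to the floor, genes under it on both arrays were not compared, and 2-fold counted as a difference. With 1 array per population no test was run; the number of arrays limits the precision. The SD of log2 ratios between probe sets of 1 gene was 0.60 for PDGFRa+ Sca-1+ over PDGFRa+ Sca-1-, 0.37 for PDGFRa+ Sca-1- over PDGFRa- Sca-1- and 0.50 for PDGFRa+ Sca-1+ over PDGFRa- Sca-1-. Named were all members above the floor on at least 1 array and, per list, up to 6 genes with the largest ratios and up to 2 within 2-fold. Alternatives were floors at the 33rd and 67th percentiles, a 3-fold threshold, log2(signal + floor), a mean over probe sets, a common median, quantile normalization and values as deposited. The members and lists were chosen with earlier results of these data known. Scripts (Python 3.11.15, pandas 2.3.3, scipy 1.17.1) were tested on simulated data.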

Additional observations from a re-analysis of the deposited data

Results flagged for a closer look

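Probe sets whose annotation names several genes entered no comparison, and 3 of those from these families had a signal above the floor. A probe set shared by Ccl19 and 9 other symbols, most of them copies of that gene, had signals of 46.6, 70.4 and 1676 in PDGFRa- Sca-1-, PDGFRa+ Sca-1- and PDGFRa+ Sca-1+ cells, at least 18.0-fold higher in the last than in each of the others. It cannot be given to 1 gene. A probe set shared by Ccl27a, Ccl27b and 3 other symbols had signals of 245, 97.9 and 267, lowest in PDGFRa+ Sca-1- cells. A second probe set of the same 5 symbols had signals of 137, 87.0 and 108 and stayed within 2-fold.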

How the results depend on the processing

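The 9 genes higher in PDGFRa+ Sca-1+ than in both other populations kept their direction under all 7 alternatives that give a ratio. All kept 2-fold too, except Cxcl13, with a log2 ratio of 0.06 at the higher floor. The log2 ratio of Ackr2 for PDGFRa+ Sca-1+ over PDGFRa- Sca-1- cells was 0.77, under 2-fold, with the mean over probe sets. Members above the floor were 28 in each Sca-1- population and 25 in PDGFRa+ Sca-1+ cells with a floor at the 33rd percentile. At the 67th they were 8 in PDGFRa- Sca-1-, 7 in PDGFRa+ Sca-1- and 13 in PDGFRa+ Sca-1+ cells. The order of the populations by this count thus depended on the floor. For PDGFRa+ Sca-1+ over PDGFRa+ Sca-1- cells the median was 0.41 with the 33rd percentile, 2.07 with the 67th percentile and 1.82 with the mean over probe sets. Lower members there were 2 with the 33rd percentile and 0 with the 67th, the mean over probe sets or a 3-fold threshold, so the Ackr4 call was lost. For PDGFRa+ Sca-1+ over PDGFRa- Sca-1- cells the median was 0.45 with the 33rd percentile and 1.41 with the 67th. In that comparison 7 members were higher at 3-fold, and 3 were lower with the 33rd percentile. For PDGFRa+ Sca-1- over PDGFRa- Sca-1- cells, 1 member was higher with the 33rd percentile or log2(signal + floor), and 2, 1 and 1 were lower with the 33rd percentile, the mean over probe sets and log2(signal + floor). The cause of these shifts was not tested. Scaling to a common median moved the median of all genes for PDGFRa+ Sca-1+ over PDGFRa+ Sca-1- cells from 0.07 to 0.19. Over all genes, a 3-fold threshold left 841 higher and 693 lower, from 1763 and 1340, for PDGFRa+ Sca-1+ over PDGFRa+ Sca-1- cells, 846 and 714, from 1713 and 1443, over PDGFRa- Sca-1- cells, and 202 and 190, from 563 and 657, for PDGFRa+ Sca-1- over PDGFRa- Sca-1- cells, where the 67th percentile left 365 and 388. Ratios against signals near the floor are limited by signal over background.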
